A study of Arabidopsis thaliana with 6 samples.

Results

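The 8 genes described here encode the calcium-dependent protein kinases of Arabidopsis thaliana that are best known from immunity: CPK1, CPK2, CPK3, CPK4, CPK5, CPK6, CPK11 and CPK28. They were taken by locus identifier from a table of 37051 genes; the rule uses no expression value, but the set was chosen with earlier results of these data known. Their transcripts were compared between the mutant los2-5 and the wild type Col-0 by 3′ RNA-seq of whole shoots, with 3 libraries of each genotype. The mutated gene, LOS2, codes for an enolase of glycolysis. The nature of the los2-5 allele is not stated in the labels. Plants of both genotypes were 2 weeks old, had spent 2 days at 4 °C on soil before growth at 22 °C in constant light, and were pooled by 3 for each library, the replicates coming from separate pots.

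A calcium-dependent protein kinase, or CPK, joins a protein kinase domain and a set of calcium-binding EF hands in a single polypeptide, so that it both senses a rise of calcium and phosphorylates its targets. Recognition of a microbe by receptors at the cell surface or by NLR receptors inside the cell raises calcium, and CPK proteins pass this on to the NADPH oxidase RBOHD, to WRKY transcription factors and to anion channels of guard cells. CPK5, with its close relatives CPK6, CPK4 and CPK11, promotes these responses, whereas CPK28 holds them back by limiting the amount of BIK1, a kinase that acts directly below the immune receptors.

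The members differ from one another most visibly in how far their sequences have diverged. The close pairs shared 85.1% (CPK1 and CPK2), 86.5% (CPK5 and CPK6) and 88.1% (CPK4 and CPK11) of aligned coding bases, whereas CPK28 shared 60.2% to 63.2% with the other 7 members. The stretch below is the calcium-binding loop of the first EF hand, 36 coding bases or 12 codons, shown because this loop is what sets a CPK apart from other protein kinases. It is written 5′ to 3′ from RefSeq TAIR10.1, and capitals mark bases that differ from CPK5 at the same place.
CPK5: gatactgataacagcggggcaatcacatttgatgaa
CPK6: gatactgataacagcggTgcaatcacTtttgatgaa
CPK4: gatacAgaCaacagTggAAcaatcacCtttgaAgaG
CPK11: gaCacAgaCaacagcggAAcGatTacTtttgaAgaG
CPK1: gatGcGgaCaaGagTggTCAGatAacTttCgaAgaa
CPK2: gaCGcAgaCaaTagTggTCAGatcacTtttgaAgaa
CPK3: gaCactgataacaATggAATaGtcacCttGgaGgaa
CPK28: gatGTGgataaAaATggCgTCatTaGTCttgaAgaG
CPK6 differed from CPK5 at 2 of the 36 bases, CPK4 at 8, CPK11 and CPK3 at 10, CPK2 at 12, CPK1 at 13 and CPK28 at 15. A script found 4 such loops in each member. In the last 500 bases of each transcript, where 3′ tags arise, 0 of 451 stretches of 50 bases occurred anywhere else in the genome for any of the 8 members, so no exact copy of these stretches lies elsewhere.

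CPK28 was the one member called between the genotypes, and it was higher in los2-5. It gave 31.3, 47.1 and 42.1 CPM (counts scaled to a common library size after TMM correction) in los2-5 replicates 1 to 3, against 20.7, 16.7 and 19.2 CPM in Col-0 replicates 1 to 3. Every los2-5 library lay above every Col-0 library, and the lowest los2-5 value belonged to replicate 1. The means were 40.2 ± 8.06 CPM in los2-5 and 18.9 ± 2 CPM in Col-0 (SD, n = 3 each). The log2 fold change, los2-5 over Col-0, was 1.09 ± 0.18 (SE), a 2.13-fold higher level with a 95% interval of 1.66 to 2.74. Its adjusted p was 0.00012 by edgeR's quasi-likelihood test with Benjamini-Hochberg adjustment over 13952 genes. The values rest on 145, 219 and 194 counts in the los2-5 libraries and 70, 68 and 85 counts in the Col-0 libraries. In bulk shoots a change in the number of cells that express a gene and a change in RNA per cell cannot be told apart.

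CPK28 (AT5G66210) lies at chr5:26456142-26459654 on the minus strand of TAIR10.1, with 12 exons and 6 annotated mRNAs. It overlaps its neighbour AT5G66200 by 13 bases on the same strand, and that gene held 406 counts over all 6 libraries. The promoters of CPK28 and CPK5, the member that restrains immune signalling and the one that drives it, are shown as the 250 bases before the annotated gene start, because WRKY transcription factors bind the W-box in the promoters of many immune genes. Both are written 5′ to 3′ on the strand of the gene from RefSeq TAIR10.1, at chr5:26459655-26459904 (minus) for CPK28 and chr4:16801355-16801604 (plus) for CPK5. Capitals mark the W-box, searched as TTGACC or TTGACT on both strands.
CPK28: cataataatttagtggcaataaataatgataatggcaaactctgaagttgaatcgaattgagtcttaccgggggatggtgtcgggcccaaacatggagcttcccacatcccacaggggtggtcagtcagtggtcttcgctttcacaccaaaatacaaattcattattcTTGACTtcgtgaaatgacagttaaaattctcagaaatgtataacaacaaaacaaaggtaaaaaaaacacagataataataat
CPK5: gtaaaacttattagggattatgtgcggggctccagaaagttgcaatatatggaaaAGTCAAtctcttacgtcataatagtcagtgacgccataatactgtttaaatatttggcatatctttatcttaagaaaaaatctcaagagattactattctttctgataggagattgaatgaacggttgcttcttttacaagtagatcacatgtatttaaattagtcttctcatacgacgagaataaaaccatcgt
CPK28 held 1 W-box 82 bases before its start and CPK5 held 1 on the other strand 195 bases before its start. CPK2, CPK3 and CPK4 also held 1 each, and CPK1, CPK6 and CPK11 held 0. An annotated neighbouring gene overlaps the windows of CPK1, CPK2 and CPK3, so these are not purely intergenic. The motif occurred in 7797 of 27443 promoters of protein-coding genes (28.4%), so that 5 of 8 members is a count beside that share and not a measured binding site. The letters CGCG, the core bound by calmodulin-binding transcription activators, occurred in 10.1% of those promoters and in 0 of the 8 members.

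**Figure D1:**
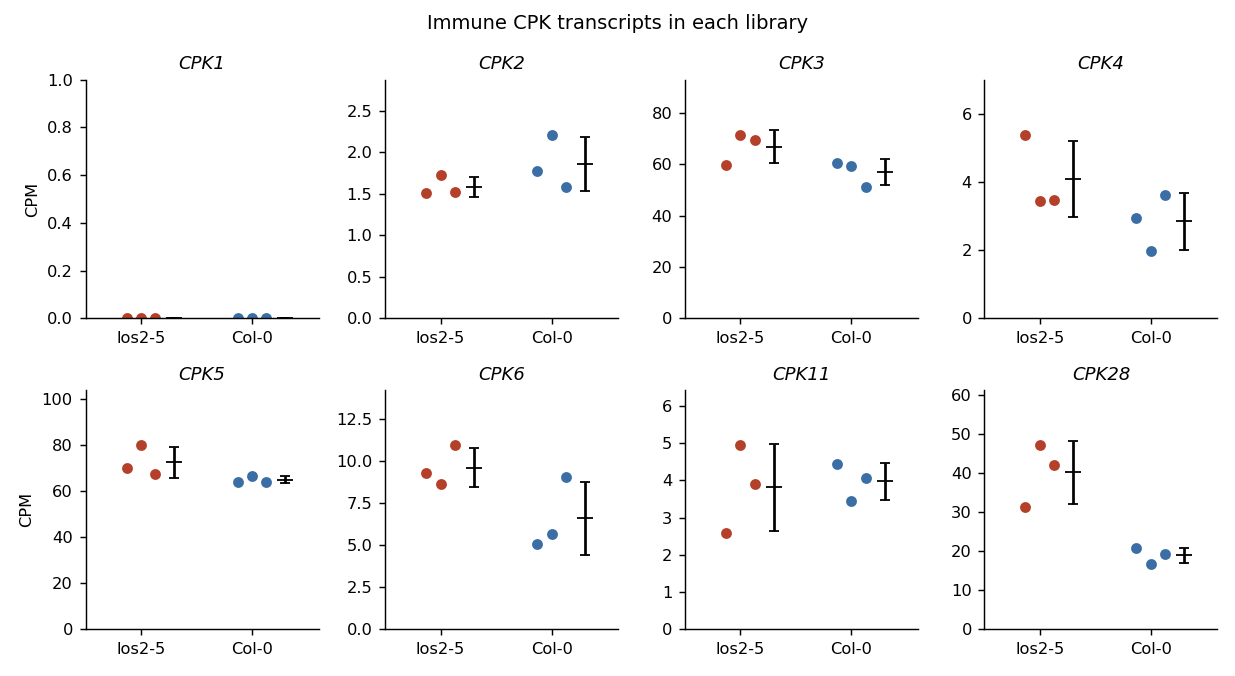
CPM of each immune CPK gene in every library, with los2-5 (red) left of Col-0 (blue); each point is a library and each black bar is the mean ± SD of 3 libraries, on axes that start at 0 and differ between panels. The libraries of the genotypes are fully apart for CPK28 (31.3 to 47.1 CPM in los2-5, 16.7 to 20.7 CPM in Col-0) and, by a small margin, for CPK5.

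Of the members that promote immune signalling, CPK4, CPK5, CPK6 and CPK11 were tested and 0 were called. CPK5 (AT4G35310, chr4:16801605-16805005, plus strand), which phosphorylates RBOHD, stood at 69.9, 79.9 and 67.5 CPM in los2-5, against 64, 66.8 and 64 CPM in Col-0. All 3 los2-5 values lay above all Col-0 values, but by a margin that was small beside their spread. Its log2 fold change was 0.16 ± 0.13 (SE, 95% interval -0.11 to 0.43), with an adjusted p of 0.43 by edgeR's quasi-likelihood test.

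CPK6 (AT2G17290, chr2:7516330-7519662, plus strand), which acts with CPK5 in immunity and also activates anion channels in guard cells, gave 9.28, 8.59 and 10.9 CPM in los2-5 and 5.02, 5.65 and 9.05 CPM in Col-0. Col-0 replicate 3 lay inside the range of los2-5, while the other Col-0 libraries were below it. The log2 fold change was 0.52 ± 0.25 (SE, 95% interval 0 to 1.04), and its adjusted p of 0.15 by edgeR's quasi-likelihood test missed the threshold of 0.05. Across the 13 alternative settings it lay between 0.36 and 0.82, with an adjusted p of 0.066 to 0.4.

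CPK4 (AT4G09570, chr4:6049441-6052380, plus strand) and CPK11 (AT1G35670, chr1:13205345-13208289, plus strand), a close pair that phosphorylates the abscisic acid response factors ABF1 and ABF4 and takes part in the early immune programme, were represented by few counts. CPK4 gave 5.4, 3.44 and 3.47 CPM in los2-5, against 2.95, 1.97 and 3.62 CPM in Col-0, where replicate 3 was above 2 of the los2-5 libraries. With 57 counts in los2-5 and 34 in Col-0, its log2 fold change of 0.52 ± 0.34 (SE) had a 95% interval of -0.2 to 1.23 and an adjusted p of 0.31 by edgeR's quasi-likelihood test. The last 29 bases of CPK4 overlap AT4G09580 on the opposite strand, which held 518 counts, against 91 for CPK4. Without a stated strand setting, reads in these shared bases cannot be told apart by position. CPK11 gave 2.59, 4.94 and 3.91 CPM in los2-5, against 4.43, 3.44 and 4.07 CPM in Col-0, and the genotypes overlapped throughout. Its log2 fold change was -0.05 ± 0.32 (SE, 95% interval -0.72 to 0.61; adjusted p 0.92 by edgeR's quasi-likelihood test), and the sign turned with library size alone as the scaling (0.07), without los2-5 replicate 1 (0.16) and without Col-0 replicate 1 (0.01). A log2 fold change of 1.09, the value of CPK28, lies outside the intervals of CPK11, CPK5 and CPK6 but inside that of CPK4. The interval of CPK28 itself, 0.73 to 1.46, overlaps those of CPK6 and CPK4. Whether the members differ from one another in their change was not tested.

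CPK3 (AT4G23650, chr4:12324758-12327651, minus strand), known from guard cells and from early defence signalling, gave 59.6, 71.5 and 69.5 CPM in los2-5, against 60.5, 59.5 and 51.3 CPM in Col-0. Los2-5 replicate 1 lay within the range of Col-0 and the other los2-5 libraries above it. The log2 fold change was 0.23 ± 0.14 (SE, 95% interval -0.06 to 0.51), with an adjusted p of 0.25 by edgeR's quasi-likelihood test.

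The pair that supports the oxidative burst and cell death after NLR activation could not be compared by the test. CPK2 (AT3G10660, chr3:3331064-3334986, minus strand) had 7, 8 and 7 counts in los2-5, against 6, 9 and 7 counts in Col-0, below the filter on low counts. These correspond to 1.58 ± 0.118 CPM in los2-5 and 1.86 ± 0.323 CPM in Col-0 (SD, n = 3 each). The ratio of its summed counts, scaled for depth, was 0.855, with an exact 95% interval of 0.452 to 1.62 that covers counting error only. The last 219 bases of CPK2, at its 3′ end where tags arise, overlap its neighbour AT3G10650 on the same strand. That gene held 643 counts, against 44 for CPK2. Reads in the shared bases cannot be told apart by position, and the labels do not say how they were counted. The counts and the ratio therefore cannot be read as the full level of CPK2. The fit without a filter gave a log2 fold change of -0.23 ± 0.49 (SE) and an adjusted p of 0.81 by edgeR's quasi-likelihood test.

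CPK1 (AT5G04870) was listed at 0 counts in all 6 libraries. Over each genotype, 0 counts allow up to 3, which is 0.216 CPM in los2-5 and 0.253 CPM in Col-0. That limit cannot be read as the level of CPK1, because the annotation places a transcribed pseudogene, AT5G04880, over it on the same strand (chr5:1416564-1420554, minus, for CPK1). The exons of AT5G04880 covered 2940 of the 2961 exonic bases of CPK1 (99.3%) and left 21 at its 3′ end, so that reads of the 2 genes cannot be told apart by position. The labels do not say how reads in shared exons were counted. AT5G04880, singled out after its values were seen, gave 7.77, 7.31 and 4.78 CPM in los2-5, against 3.84, 5.41 and 5.65 CPM in Col-0, and the genotypes overlapped. Its log2 fold change was 0.40 ± 0.28 (SE, 95% interval -0.18 to 0.97), with an adjusted p of 0.34 by edgeR's quasi-likelihood test.

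**Figure D2:**
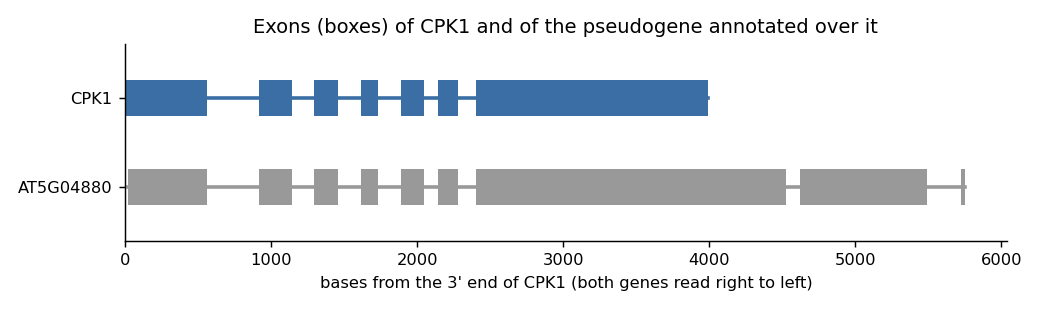
Annotated exons (boxes) of CPK1 and of the pseudogene AT5G04880, as distance in bases from the 3′ end of CPK1; both genes are transcribed from right to left. Every exon of CPK1 is also an exon of AT5G04880, apart from the last 21 bases at the 3′ end.

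Of the 8 members, 6 passed the filter and 1 (CPK28) was called higher in los2-5, with 0 called lower and 5 not called. Over all 13952 genes tested, 20.5% were called, 9.92% higher and 10.6% lower, so 1 of 6 is a share near the background. Without Col-0 replicate 3 the total was 1758 genes called, against 2861 with all libraries. The libraries did not overlap, with los2-5 higher, for 2 of the 6 members (CPK5 and CPK28) and for 18.7% of all genes tested. The median log2 fold change of the 6 members was 0.38, and 5 of the 6 (83.3%) were above 0, beside a median of 0.02 and 51.2% above 0 over all genes. The 6 include CPK4, which reached the minimum of the count filter in every los2-5 library but not in every Col-0 library. With library size alone as the scaling, log2 fold changes shifted up by a median of 0.12, all 6 members were above 0, and higher genes made up 68.8% of all calls instead of 48.4%. CPK28 was called in all 13 alternative settings, with a log2 fold change of 0.96 to 1.24 and an adjusted p of 2.1e-08 to 0.0016. CPK3, CPK4, CPK5, CPK6 and CPK11 were called in 0 of the 13.

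Within each library, ratios between members describe how the kinases changed against each other, without reference to library size. The log2 ratio of CPK28 to CPK5 was -1.16, -0.76 and -0.68 in los2-5, against -1.63, -2 and -1.74 in Col-0. The genotypes did not overlap, and the means were -0.87 ± 0.26 in los2-5 and -1.79 ± 0.19 in Col-0 (SD, n = 3 each), a difference of 0.92. This difference comes from the same CPM values as the fold changes of CPK28 and CPK5 given above and is not separate evidence. The log2 ratio of CPK5 to CPK6 was 2.91, 3.22 and 2.64 in los2-5 and 3.67, 3.56 and 2.82 in Col-0, with overlap. That of CPK4 to CPK11 was 1.06, -0.52 and -0.17 in los2-5 and -0.58, -0.81 and -0.17 in Col-0, and here a single los2-5 library stood well above the others. These ratios are of 3′ tags and are not ratios of molecules.

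**Figure D3:**
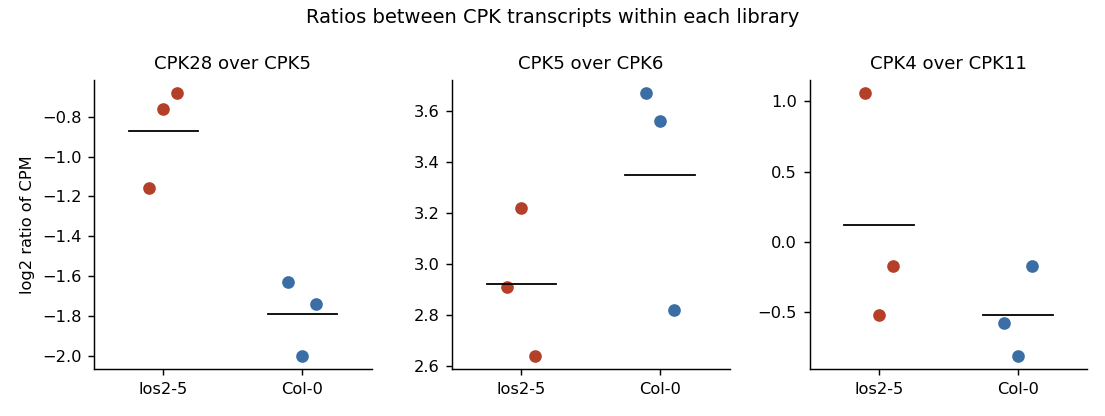
Log2 ratio of CPM between pairs of CPK genes in every library, with los2-5 (red) left of Col-0 (blue); points are libraries, lines are means of 3, and the axes do not start at 0. For CPK28 over CPK5 the los2-5 libraries (-1.16 to -0.68) lie above the Col-0 libraries (-2 to -1.63), and for the other pairs the genotypes overlap.

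The other 26 CPK genes of Arabidopsis give the family around the members. Of these, 12 passed the filter, 3 were called higher (CPK7, CPK10 and CPK32) and 0 lower, and 7 were listed at 0 counts in all libraries. The shares over all genes tested were 9.92% higher and 10.6% lower. CPK7 gave 88.7, 128 and 125 CPM in los2-5, against 46.3, 54.6 and 60.8 CPM in Col-0, with no overlap. Its log2 fold change of 1.08 ± 0.15 (SE; adjusted p 2.9e-05 by edgeR's quasi-likelihood test) was close in size to that of CPK28, and it was called in all 13 alternatives.

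CPK32 and CPK10, which with CPK30 relay nitrate to gene expression, had log2 fold changes of 0.64 ± 0.16 and 0.67 ± 0.19 (SE), with adjusted p of 0.0065 and 0.014 by edgeR's quasi-likelihood test. CPK32 averaged 60.8 ± 8.61 CPM in los2-5 and 38.9 ± 8.26 CPM in Col-0, and CPK10 averaged 19.4 ± 1.92 CPM in los2-5 and 12.3 ± 1.8 CPM in Col-0 (SD, n = 3 each). The call of CPK32 was lost without Col-0 replicate 1 (adjusted p 0.054), and that of CPK10 without Col-0 replicate 2 (0.082) or 3 (0.056), all by edgeR's quasi-likelihood test. CPK10 also overlaps AT1G18880 on the opposite strand by 605 bases, and without a stated strand setting reads of the 2 genes cannot be told apart. AT1G18880 held 61 counts in all 6 libraries, against 415 for CPK10.

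By the subgroups of the CPK family, 3 of 6 tested genes of subgroup III were called (CPK7, CPK10 and CPK32) and 1 of 1 in subgroup IV (CPK28), beside 20.5% called over all genes tested. In subgroup I, which holds CPK1, CPK2, CPK4, CPK5, CPK6 and CPK11, 0 of 5 were called and the median log2 fold change was 0.16. In subgroup II, which holds CPK3, 0 of 6 were called and the median was 0.42. CPK33 of subgroup II had a log2 fold change of 0.93 ± 0.43 (SE, unadjusted p 0.041, adjusted p 0.13 by edgeR's quasi-likelihood test) on 36 counts in los2-5 and 16 in Col-0. The remaining uncalled genes outside the members ran from -0.13 (CPK12) to 0.61 (CPK23). Over the 12 tested genes outside the members the median was 0.52 and 11 were above 0, a count that ran from 9 to 12 over the alternatives. Over all 18 tested CPK genes the median was 0.51 and the libraries did not overlap, with los2-5 higher, for 9, beside a median of 0.02 and 18.7% without overlap over all 13952 genes tested. CPK4, CPK23, CPK29 and CPK33 reached the minimum of the count filter in every los2-5 library but not in every Col-0 library. These low-count genes thus entered through the genotype where each was higher, and the medians and counts above 0 include them. CPK23, CPK29 and CPK33 are also among the 9 without overlap.

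**Figure D4:**
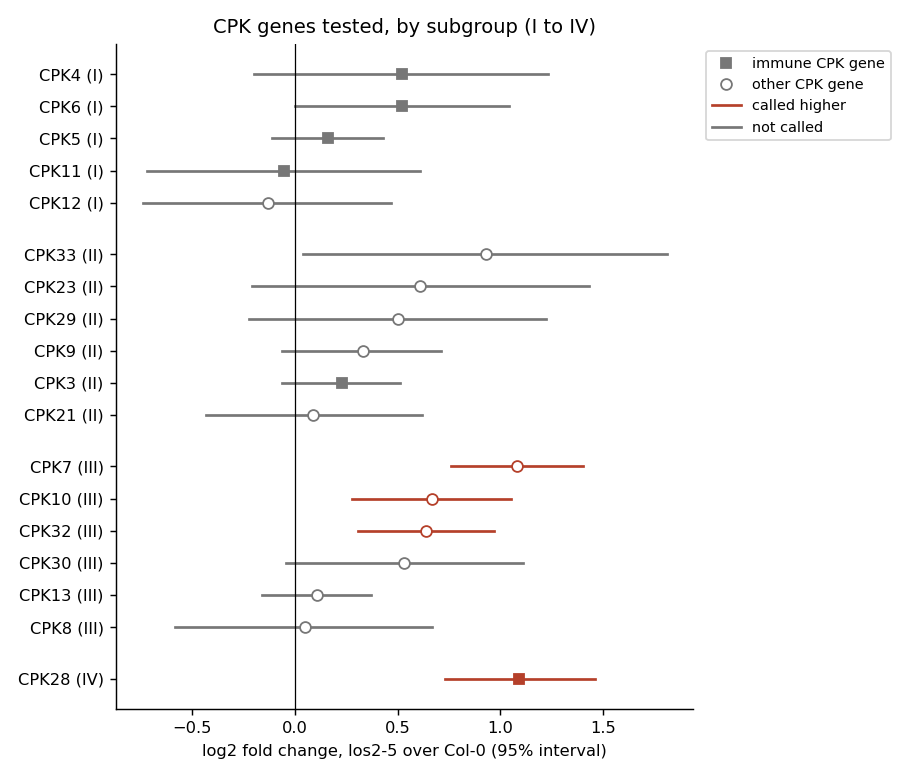
Log2 fold change (los2-5 over Col-0) with 95% interval for the 18 CPK genes tested, ordered by subgroup; squares are the immune members, circles the other CPK genes, and red marks genes called higher. The 4 red genes are CPK28, CPK7, CPK10 and CPK32, and the intervals of the remaining genes reach 0 or, for CPK33, nearly so.

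Genes for substrates and partners of CPK proteins were compared as a list of 19. Of 10 tested, 5 were called higher and 1 lower, with 9 above 0 and a median log2 fold change of 0.51. Over all genes tested 9.92% were called higher and 10.6% lower, 51.2% were above 0 and the median was 0.02. Without Col-0 replicate 2 or 3, and with DESeq2, 3 were called higher. ATL31, a ubiquitin ligase of the carbon and nitrogen response, gave 25, 29 and 31.7 CPM in los2-5, against 10.9, 7.62 and 9.05 CPM in Col-0. Its libraries did not overlap (log2 fold change 1.64 ± 0.19 (SE), adjusted p 3.1e-06 by edgeR's quasi-likelihood test). EXO70B1, an exocyst subunit whose loss activates immunity through CPK5, averaged 96.4 ± 11 CPM in los2-5 and 61.9 ± 2.1 CPM in Col-0 (0.64 ± 0.13, adjusted p 0.0014 by the same edgeR test). WRKY48, a transcription factor phosphorylated by CPK4, CPK5, CPK6 and CPK11, rose on few counts, with 44 in los2-5 and 8 in Col-0 (2.18 ± 0.49, adjusted p 0.0029). SLAH3, an anion channel, fell to 1.58 ± 0.243 CPM in los2-5, against 4.69 ± 1.17 CPM in Col-0 (-1.54 ± 0.37, adjusted p 0.0043). These 4 were called in all 13 alternatives. Some low-count genes of the list, WRKY48 and SLAH3 among them, reached the filter minimum in every library only in the genotype where each was higher.

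The proteins through which CPK28 limits immune signalling were covered unevenly. BIK1, the kinase whose turnover CPK28 promotes, gave 16.4, 13.8 and 24.3 CPM in los2-5, against 13, 11.3 and 10.6 CPM in Col-0. Every los2-5 library was above every Col-0 library, with replicate 3 of los2-5 far above the rest. Its log2 fold change was 0.65 ± 0.21 (SE, adjusted p 0.035 by edgeR's quasi-likelihood test). The call was made in 7 of 13 alternatives, and without los2-5 replicate 3 the value was 0.38 with an adjusted p of 0.24. The call was also lost without Col-0 replicate 1 (0.71, adjusted p 0.054), 2 (0.62, 0.096) or 3 (0.57, 0.15), with DESeq2 (adjusted p 0.097) and with limma-voom (0.058). PUB25 and PUB26, the ubiquitin ligases that CPK28 activates against BIK1, had 13 and 5 counts in los2-5, against 18 and 11 counts in Col-0, and were not tested. RBOHD had 13 counts in los2-5 and 16 in Col-0, a depth-scaled ratio of 0.695 with an exact 95% interval of 0.307 to 1.54, which includes 1.

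Early immune reporter genes, used to read CPK and MAP kinase signalling, were mostly too low to test. Of 10 listed, 2 passed the filter and 1 was called, beside 20.5% called over all genes tested. WAK2, a wall-associated kinase and the one called, averaged 69.7 ± 4.82 CPM in los2-5 and 38.8 ± 6.5 CPM in Col-0 (log2 fold change 0.85 ± 0.15 (SE), adjusted p 0.00026 by edgeR's quasi-likelihood test). NHL10, a reporter of CPK5 activity, had 13, 8 and 28 counts in los2-5, against 2, 0 and 1 in Col-0, a depth-scaled ratio of 14 with an exact 95% interval of 4.51 to 70.1. Without los2-5 replicate 2, or without any single Col-0 library, 2 reporters were called. Leaving out 1 library also lowers the number of libraries in which the count filter asks for its minimum. A gene high in los2-5 alone can then enter. The part of this change in the added call was not tested. With no filter NHL10 was called, with an adjusted p of 3.3e-07 by edgeR's quasi-likelihood test. In the same fit FRK1 (adjusted p 0.25) and PHI-1 (adjusted p 0.52) were not called. FRK1, a reporter of MAP kinase signalling, had 12 counts in los2-5 and 3 in Col-0, a ratio of 3.42 with an interval of 0.923 to 18.9. PHI-1, a reporter of CPK signalling, had 16 counts in los2-5 and 21 in Col-0, a ratio of 0.652 with an interval of 0.318 to 1.31. NHL10 and PHI-1 thus lay on opposite sides of 1, the interval of PHI-1 including 1.

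**Figure D5:**
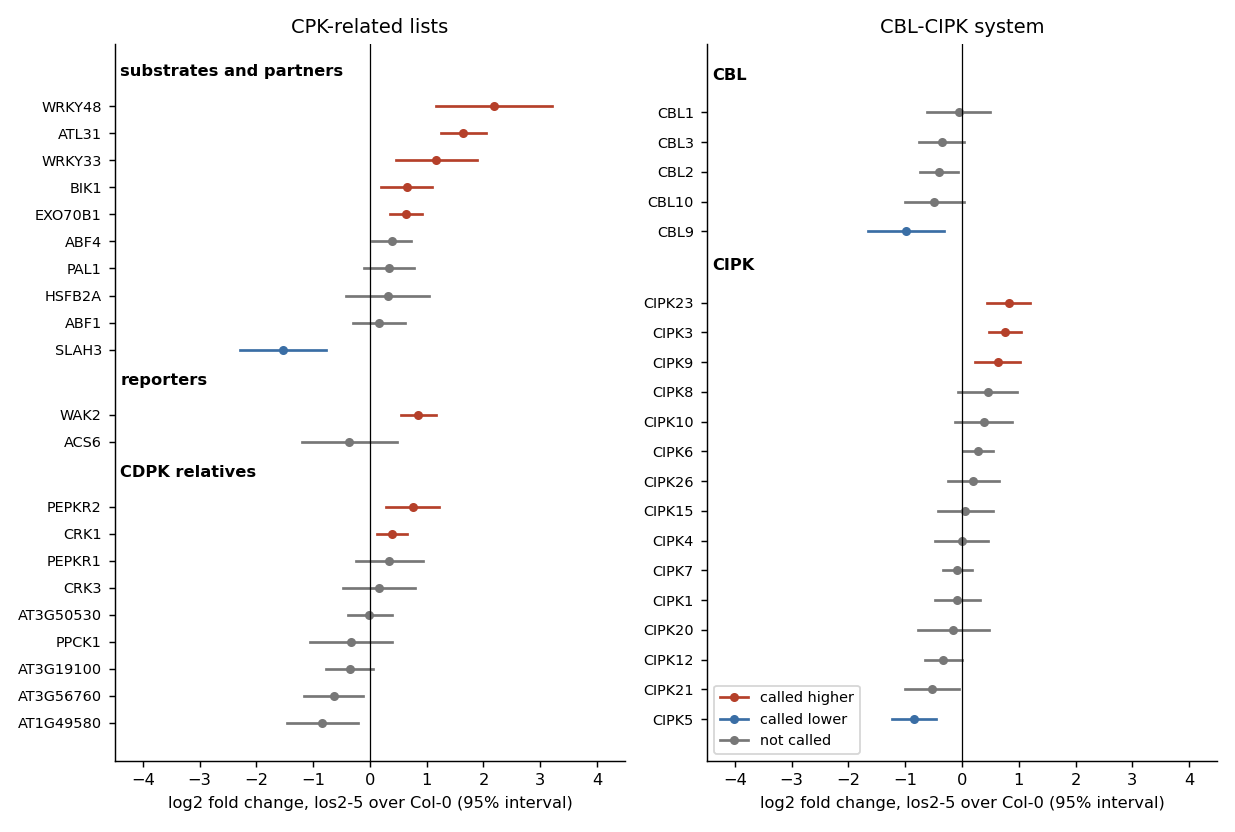
Log2 fold change (los2-5 over Col-0) with 95% interval for the tested genes of the lists around the CPK members: substrates and partners, reporters and CDPK relatives on the left, and CBL and CIPK genes on the right. Red marks genes called higher, blue genes called lower and grey genes not called; 5 of 10 substrates and partners are red, and no CBL gene is.

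Other calcium-signalling families were set beside the members. Among 9 tested CDPK relatives, kinases related to the CPK family that lack working EF hands, 2 were called higher and 0 lower, around a median of -0.01 on the log2 scale. The 2 were PEPKR2 (0.75 ± 0.22 (SE), adjusted p 0.019) and CRK1 at AT2G41140 (0.39 ± 0.13, adjusted p 0.034) by edgeR's quasi-likelihood test, each called in 9 of 13 alternatives. PEPKR2 was lost without los2-5 replicate 3 (adjusted p 0.093), Col-0 replicate 1 (0.08) or Col-0 replicate 2 (0.065), and CRK1 without los2-5 replicate 2 (0.26, adjusted p 0.17), Col-0 replicate 2 (0.13) or Col-0 replicate 3 (0.15). The CBL calcium sensors and the CIPK kinases that they recruit form a system in which sensor and kinase are separate proteins. Of 20 tested CBL and CIPK genes 3 were called higher and 2 lower, with a median of -0.07. The shares over all genes tested were 9.92% higher and 10.6% lower, for these genes and for the CDPK relatives alike. The 5 tested CBL genes had a median of -0.4, and 0 were above 0. For 3 of them the libraries did not overlap, with los2-5 lower, as for 2590 of all 13952 genes tested. The 15 tested CIPK genes had a median of 0.06, and 8 were above 0.

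Among the CIPK genes, CIPK3 averaged 117 ± 13.2 CPM in los2-5 and 69.3 ± 9.15 CPM in Col-0 (log2 fold change 0.75 ± 0.14 (SE), adjusted p 0.00045 by edgeR's quasi-likelihood test). CIPK23, which activates potassium and nitrate transporters, had a log2 fold change of 0.82 ± 0.18 (adjusted p 0.0026), and CIPK9, also known from potassium nutrition, had 0.63 ± 0.19 (adjusted p 0.021). The call of CIPK9 was lost without los2-5 replicate 2 (0.49, adjusted p 0.11), Col-0 replicate 1 (0.49, 0.12) or Col-0 replicate 3 (0.57, 0.11), by the same edgeR test. CIPK5 fell to 15.3 ± 1.91 CPM in los2-5, against 27.4 ± 5.91 CPM in Col-0 (-0.85 ± 0.19, adjusted p 0.0023), and without los2-5 replicate 1 a second CIPK gene was called lower, making 2. CBL9, a partner of CIPK23, fell to 3.02 ± 1.19 CPM in los2-5, against 5.96 ± 1.5 CPM in Col-0 (-0.99 ± 0.33, adjusted p 0.034). It was called in 8 of 13 alternatives, and the call was lost without los2-5 replicate 1 (-0.76, adjusted p 0.12), los2-5 replicate 3 (0.087) or Col-0 replicate 3 (0.2) by the same edgeR test. CBL9 reached the filter minimum in every library only in Col-0, where it was higher.

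The genes whose profile was most like that of CPK28 were AT1G72900 and AT3G47090, neither of which has a symbol in the reference. Their centred log2 CPM differed from that of CPK28 by a root mean square of 0.0759 and 0.0774 over the 6 libraries, the smallest among 13951 other genes. These log2 CPM carry a prior count of 2, which shrinks differences in genes with few counts. AT1G72900 averaged 8.71 ± 1.22 CPM in los2-5 and 4.15 ± 0.653 CPM in Col-0, and AT3G47090 averaged 3.6 ± 0.874 CPM in los2-5 and 1.43 ± 0.182 CPM in Col-0 (SD, n = 3 each). Their fitted log2 fold changes were 1.07 ± 0.26 and 1.31 ± 0.39 (SE), with adjusted p of 0.0054 and 0.021 by edgeR's quasi-likelihood test. In Col-0 AT3G47090 lay below the minimum of the count filter, so it entered through los2-5, where it was higher.

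The libraries held 4400433 to 4537653 counts in los2-5 and 3563033 to 4598645 counts in Col-0, with 18997 to 19762 genes detected. LOS2 itself gave 120, 115 and 123 CPM in los2-5, against 110, 124 and 106 CPM in Col-0, with a log2 fold change of 0.08 ± 0.12 (SE) and an adjusted p of 0.71 by edgeR's quasi-likelihood test. The labels do not state the lesion or its place relative to the 3′ tags, so whether the allele should alter this level is not known here, and the value does not check the genotype labels either way. Leaf mesophyll markers were present in all libraries and 5 of 6 were called lower, beside 10.6% of all genes tested. Their summed level was 14400 to 16100 CPM in los2-5 and 22600 to 25300 CPM in Col-0. Their part in the results for CPK28, CPK7 and the other called genes was not tested. Of 6 guard cell markers, 3 were tested and 0 called, with sums of 290 to 337 CPM in los2-5 and 240 to 372 CPM in Col-0. Most of these sums was GC1, with a mean of 273 CPM in los2-5 and 257 CPM in Col-0. Root markers summed to 48.4 to 69.2 CPM in los2-5 and 55.2 to 67.6 CPM in Col-0 (2 of 8 at 0). Nearly all of this was PYK10, with 46.7 to 67.9 CPM in los2-5 and 53.1 to 66.7 CPM in Col-0. Every other root marker stayed at or below 1.29 CPM in each library. Flower markers summed to 0.43 to 2.16 CPM in los2-5 and 1.13 to 3.54 CPM in Col-0 (0 of 5 at 0). Of 4 seed markers 3 were at 0 in all libraries.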

How the data were processed

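The authors deposited raw read counts per gene, which were used unaltered. STAR, edgeR and TAIR10 appear without versions in the submitters' processing notes. Counter, annotation and strand setting are not named there or in the labels. All 37051 identifiers matched locus tags of RefSeq TAIR10.1, which supplied names, gene models and sequences by locus, since the count table holds no coordinates. Each library was 1 sample.

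Genes were kept with filterByExpr (minimum count 10, total 15), scaled by TMM and tested with edgeR 4.0.16 (glmQLFit robust, glmQLFTest; R 4.3.3) on genotype alone. Benjamini-Hochberg adjustment ran over 13952 genes, with calls at an adjusted p of 0.05 or less. Standard errors are the absolute log2 fold change over the square root of F. The common dispersion was 0.0155. Intervals for low counts are exact binomial at 95% and cover counting error only. Coding alignments used Biopython 1.88. The procedure was tested on counts simulated with the common dispersion for every gene, which does not cover gene-to-gene differences in spread. The 13 alternatives were DESeq2 1.42.0, limma-voom 3.58.1, 2 other scalings, 2 other filters, a replicate block and leaving out each of the 6 libraries.

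The members and gene lists were chosen with earlier results of these data known. Named genes were all members, up to 4 called genes of each other list by smallest p, RBOHD, BIK1, FRK1, NHL10 and PHI-1, tested CPK genes, and the 2 genes most like each called member. AT5G04880, PUB25, PUB26, PYK10, GC1 and the genes overlapping members were added after their values were seen.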

Additional observations from a re-analysis of the deposited data

How the results depend on the processing

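Members called were 1 higher and 0 lower under all 13 alternatives. With library size alone, 2179 genes were called higher, and CPK11 turned to 0.07; it also turned to 0.16 without los2-5 replicate 1 and to 0.01 without Col-0 replicate 1, and leaving out 1 library gave it a range of -0.28 to 0.16. DESeq2 called 0 CDPK relatives and 3 substrates and partners higher, and 0 CBL genes lower, as did library size alone for CBL genes (0). Early immune reporters called higher were 3 with no filter and 2 with at least 1 CPM in 3 libraries. Leaving out 1 library gave 1758 to 3143 genes called, 831 to 1537 higher and 927 to 1606 lower, with the lowest counts all without Col-0 replicate 3. The same step gave 0 to 2 CDPK relatives, 3 to 6 substrates and partners and 1 to 2 reporters higher, and 0 to 1 CBL and 1 to 2 CIPK genes lower. The cause of these shifts was not tested. Deviations of same-numbered libraries correlated at 0.05, 0 and -0.05, so the numbers were not taken as pairs. With a replicate block 3115 genes were called, CPK28 had a log2 fold change of 1.08 (adjusted p 1.1e-05, edgeR quasi-likelihood), and 2 CBL genes were lower. Of the single-gene values under an alternative, 284 kept their call and sign, 25 lost the call and 3 reversed. CPK1 and CPK2 did not pass the count filter, and low counts limit CPK2, CPK4 and CPK11. The 3′ end that CPK2 shares with AT3G10650 also limits its values, and the last 29 bases of CPK4 are shared with AT4G09580 on the opposite strand.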
